A study of Homo sapiens with 2 samples.

Results

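Troponin is the calcium switch of the sarcomere, and 5 of its genes are described here: TNNI1, TNNI3, TNNT1, TNNT2 and TNNC1. They were taken by symbol from the 36601 gene rows of a single-cell count matrix, in which all 5 were found, among 8 troponin genes in all. The cells were cardiomyocytes differentiated from H9, a human embryonic stem cell line, and frozen at day 15. All of them carried the fluorescent calcium reporter gCaMP6f, were thawed in medium with serum and the ROCK inhibitor Y-27632, and were tagged with antibody-borne barcodes (hashtags) before being pooled. The pool gave 2 libraries, 1 of RNA and 1 of hashtags, both from droplet capture with 10x Genomics reagents. No label says what each of the 13 hashtags marks, so hashtags are described by their values only, and there are no labelled groups and no replicates. Comparisons are between cells of this 1 pool, and no test was made.

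A troponin complex holds 3 subunits. Troponin C binds calcium, troponin I inhibits contraction until calcium is bound, and troponin T ties the complex to tropomyosin on the thin filament. TNNC1 encodes the troponin C of cardiac and slow skeletal muscle, and TNNT2 the cardiac troponin T. TNNI1, the slow skeletal troponin I, is the main form of the fetal heart and gives way to TNNI3, the cardiac form, as the heart matures. TNNT1 encodes the slow skeletal troponin T. The ratio of TNNI3 to TNNI1 is therefore a common measure of cardiomyocyte maturity.

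The genes lie in pairs. On GRCh38 with GENCODE 29, TNNT2 (chr1:201359008-201377762) and TNNI1 (chr1:201403768-201429866) are 26005 bases apart, and TNNT1 (chr19:55132794-55149354) and TNNI3 (chr19:55151767-55157773) are 2412 bases apart. TNNC1 is at chr3:52451102-52454070, and all 5 genes are on the minus strand. LAD1 overlaps TNNT2 on the same strand and held 1034 UMIs in all cells, against 1725050 for TNNT2. AC010327.1 overlaps TNNI3 on the same strand and was not among the rows used here, so reads that fit both genes make TNNI3 values uncertain to that extent.

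RefSeq promoter windows (GRCh38.p14) were matched for TNNT2, TNNT1 and TNNI3, 3 of the 5 genes. The 250 bases before each RefSeq start are shown because TNNI3 and TNNT1 are neighbours whose levels varied together over hashtags, while TNNT2 did not vary with them. These starts lie inside the GENCODE gene bounds given above, so each window partly overlaps its gene as bounded there. Capitals mark AGATAA, a letter sequence that GATA factors bind, CATTCC, which TEAD factors bind, and TATAAA, the TATA box, each on either strand (AGATAA reads TTATCT on the other). The windows are chr19:55157733-55157982, chr19:55149207-55149456 and chr1:201377681-201377930, all read 5′ to 3′ on the minus strand.
TNNI3: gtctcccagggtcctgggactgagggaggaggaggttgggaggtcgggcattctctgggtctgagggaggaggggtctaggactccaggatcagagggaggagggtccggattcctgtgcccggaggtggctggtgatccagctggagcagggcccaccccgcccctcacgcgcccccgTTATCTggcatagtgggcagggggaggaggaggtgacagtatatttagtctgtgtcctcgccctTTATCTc
TNNT1: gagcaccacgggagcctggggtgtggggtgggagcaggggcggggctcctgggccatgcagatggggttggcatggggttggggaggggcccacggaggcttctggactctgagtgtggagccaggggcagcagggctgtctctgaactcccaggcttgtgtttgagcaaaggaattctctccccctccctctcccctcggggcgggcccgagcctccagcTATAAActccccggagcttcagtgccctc
TNNT2: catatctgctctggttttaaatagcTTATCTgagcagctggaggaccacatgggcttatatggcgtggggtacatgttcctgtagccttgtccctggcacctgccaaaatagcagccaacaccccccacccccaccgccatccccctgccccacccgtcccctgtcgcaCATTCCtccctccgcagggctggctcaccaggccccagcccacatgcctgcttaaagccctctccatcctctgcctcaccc
AGATAA was found 2 times before TNNI3, 1 time before TNNT2 and 0 times before TNNT1, and 9.17% of 35116 windows of this length hold it on either strand. CATTCC was found 1 time, before TNNT2 (11.9% of windows). TATAAA was found 1 time, before TNNT1 (10.7% of windows). CANNTG, the letters of an E-box, occurred 4 times before TNNT2 and 1 time before each of TNNI3 and TNNT1, and in 61.8% of windows. AAGTG, the core of NKX2-5 sites (37.6% of windows), the CArG box of SRF (1.16%) and the MEF2 motif (2.80%) were not among the letters of these 3 windows. All motifs were searched on both strands. No match in capitals overlapped another motif, and a match describes letters, not a bound site.

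After filters, 19309 cells remained with 258959915 UMIs (unique molecular identifiers, 1 per captured RNA molecule) and a median of 11733 UMIs per cell. Levels are given as UMIs summed over the cells of a group and scaled to 1000000 UMIs (CPM). Ranges in parentheses are exact 95% intervals and cover counting error only, not variation between cells or cultures. Cells were clustered without the troponin genes, and 14691 cells (76.1%) in 7 of 15 clusters were cardiomyocyte-like: the summed level of 12 contractile marker genes was 31502 CPM in them and 2356 to 9506 CPM in the other named classes. All 12 markers were above 0 in each of these classes, and the part of free cardiomyocyte RNA in the troponin levels of other classes was not tested. The other named classes were stromal-like (1509 cells), epithelial-like (722), endoderm-like (324), epicardial-like (247) and endothelial-like (62). Cells of 2 further clusters (1754 cells) were left unnamed. No hashtag was called in 9801 cells (50.8%), and 4094 cells carried 2 hashtags at 20% or more each.

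In cardiomyocyte-like cells the troponin I pool was almost wholly TNNI1. TNNI1 stood at 6161 CPM (6150 to 6171) and TNNI3 at 93.5 CPM (92.2 to 94.8). TNNI3 thus made up 1.49% (1.47 to 1.52) of the UMIs of both genes, 20334 against 1340039. TNNT2, at 7557 CPM, likewise outnumbered TNNT1, at 6.69 CPM (6.35 to 7.04), and TNNT1 made up 0.0884% of their UMIs. TNNC1 stood at 4077 CPM, or 54.0 UMIs per 100 of TNNT2. These are ratios of 3′ tags, in which capture can differ between genes, so they rank cells and not proteins. The fast skeletal genes were scarce: TNNI2 held 1.76 CPM, TNNT3 1.64 CPM and TNNC2 8.02 CPM in the same cells.

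The 3 abundant genes were found in nearly every cardiomyocyte-like cell, and TNNI3 was not. A TNNT2 UMI was seen in all but 0.00681% of cells, a TNNI1 UMI in all but 0.0681% and a TNNC1 UMI in all but 0.463%, with medians of 98, 76 and 46 UMIs per cell. TNNI3 was at 0 in 58.2% of cells, at 5 UMIs or more in 8.79% and at 10 or more in 3.02%, up to 40 UMIs. The tenth of cells with the most TNNI3 held 62.6% of its UMIs. The same share was 28.1% for TNNI1, 24.6% for TNNT2 and 31.4% for TNNC1, whose higher counts spread less from counting alone. It was 73.7% for NPPA and 61.5% for MYH7, which also had more UMIs than TNNI3, so TNNI3 is not alone in this. These shares were not corrected for the depth of cells. Among 10841 cells with at least 50 UMIs of TNNI1 and TNNI3 together, the median TNNI3 share was 0%, the 90th percentile 4.41% and the highest value 37.6%. A share of 10% or more was reached by 388 of these cells (3.58%). So TNNI3 was concentrated in a minority of cells, and no cell of that depth had more TNNI3 than TNNI1.

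Shares of cells with a UMI do not separate the classes well for this gene. TNNI3 was seen in 41.8% of cardiomyocyte-like cells (median depth 12759 UMIs), in 46.6% of endoderm-like cells (14444 UMIs) and in 9.68% of endothelial-like cells (9590 UMIs), a class that is not known for it. After thinning each cell to 3000 UMIs the values were 18.7%, 18.2% and 3.33%. The CPM ordered the classes with smaller gaps than TNNI1 did, as the plot of levels by cell class shows.

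**Figure D1:**
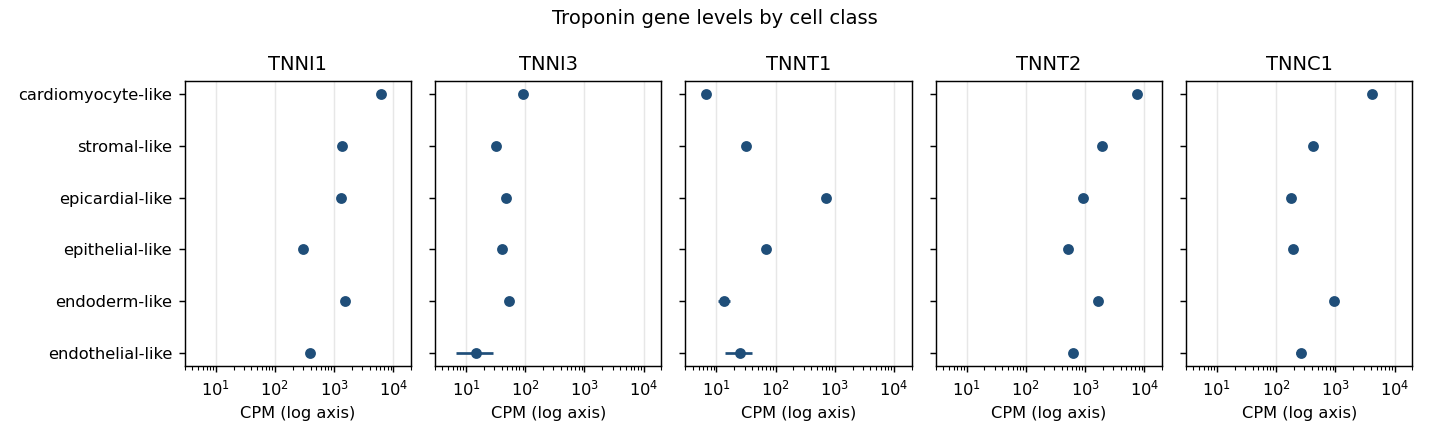
Level of each gene in 6 cell classes, in CPM on a log axis shared by the panels; points are sums over the cells of a class and bars are exact 95% Poisson intervals, most of them narrower than the point. TNNI1, TNNT2 and TNNC1 were highest in cardiomyocyte-like cells, while TNNT1 was highest in epicardial-like cells (707 CPM) and lowest in cardiomyocyte-like cells (6.69 CPM).

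TNNI3 did not follow TNNI1 from class to class. It stood at 53.9 CPM (48.1 to 60.1) in endoderm-like, 48.0 (40.8 to 56.2) in epicardial-like, 40.0 (36.2 to 44.1) in epithelial-like, 32.4 (29.7 to 35.4) in stromal-like and 14.8 (6.78 to 28.1) in endothelial-like cells. Neighbours in this order have intervals that overlap, except that the stromal-like and epithelial-like intervals, and the stromal-like and endothelial-like intervals, do not. TNNI1 ran from 295 CPM in epithelial-like to 1505 CPM in endoderm-like cells. The TNNI3 share was therefore highest in epithelial-like cells, at 11.9% (10.9 to 13.1), from 401 TNNI3 and 2957 TNNI1 UMIs. It was 3.63% in endothelial-like, 3.49% in epicardial-like, 3.45% in endoderm-like and 2.33% in stromal-like cells. In epithelial-like cells TNNI3 reached 42.8% of its cardiomyocyte-like level, against 4.79% for TNNI1, 6.69% for TNNT2 and 4.80% for TNNC1. The 4 genes thus stood in another ratio to each other than in cardiomyocyte-like cells. In endoderm-like cells TNNI1, TNNT2 and TNNC1 stood at 24.4%, 21.6% and 23.6% of their cardiomyocyte-like levels, close to each other, and single cells there held up to 726 TNNI1 UMIs against a median of 2.

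Cardiomyocyte-like cells were clustered again into 9 sub-clusters, numbered by size and described by their leading genes. Sub-cluster 0 (2947 cells) was led by NR2F2 and NPPA, which mark atrial cardiomyocytes, and had the highest TNNI3 share, 3.69% (3.6 to 3.79). Sub-cluster 7 (909 cells, led by MT3 and NMB) had 2.32% (2.23 to 2.42) and sub-cluster 1 (2425 cells, led by the metallothionein gene MT1G) 1.72% (1.67 to 1.78). Sub-cluster 8 (511 cells) had 1.44%. Sub-cluster 4 (1814 cells, led by IRX1) had 1.19%. The cycling sub-clusters 5, led by UBE2C, and 6, led by PCLAF, had 0.974% and 0.975%, with overlapping intervals. The lowest were sub-cluster 2 (led by GUCY1A1), with 0.750%, and sub-cluster 3 (led by HSPB3), with 0.718%, whose intervals overlapped too. TNNI3 stood at 209 CPM in sub-cluster 0, 52.6 CPM in sub-cluster 3 and 40.7 CPM in sub-cluster 2. TNNI1 was near the same level in sub-clusters 0 and 2, at 5455 and 5387 CPM, and higher in sub-cluster 3, at 7270 CPM.

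Sub-cluster 8 stood apart. Its cells had a median of 38576 UMIs, and its leading genes included COL3A1 and LUM of stromal cells and WFDC2 of epithelial cells. It is called by its number only. Without it the TNNI3 share of cardiomyocyte-like cells was 1.5%, and the ratios described next kept their calls.

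TNNI1 and TNNC1 relative to TNNT2 had other orders. TNNI1 was highest in sub-cluster 7, at 120 UMIs per 100 of TNNT2 (119 to 122), and lowest in sub-cluster 0, at 59.7 (59.3 to 60.0). So sub-cluster 7 paired the highest TNNI1 with a TNNI3 share that was higher in sub-cluster 0 alone. TNNC1 per 100 TNNT2 UMIs was 65.9 and 65.6 in the cycling sub-clusters 5 and 6 and 65.3 in sub-cluster 8, and lowest in the IRX1-led sub-cluster 4, at 35.0 (34.7 to 35.3). In sub-cluster 4 TNNC1 stood at 3245 CPM, against 4447 CPM in sub-cluster 0 and 2853 CPM in sub-cluster 7.

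**Figure D2:**
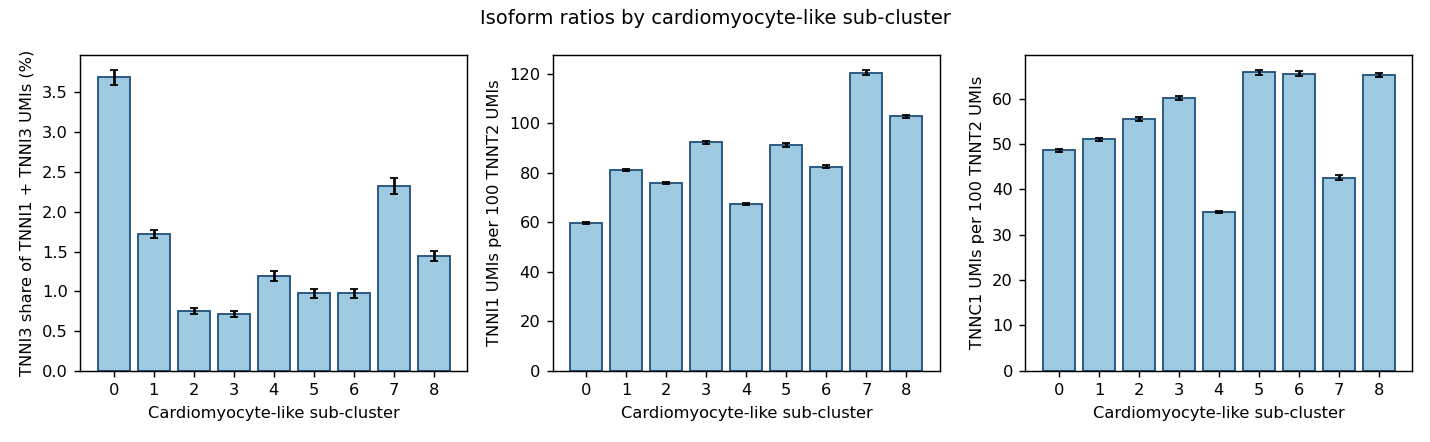
Bars give, for each of the 9 cardiomyocyte-like sub-clusters, the TNNI3 share of TNNI1 and TNNI3 UMIs in percent (left), TNNI1 UMIs per 100 TNNT2 UMIs (middle) and TNNC1 UMIs per 100 TNNT2 UMIs (right), with exact 95% intervals. The 3 measures order the sub-clusters differently: sub-cluster 0 is highest on the left, sub-cluster 7 in the middle, and sub-cluster 4 is lowest on the right.

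The next comparison asked whether the isoform ratio differs between atrial and ventricular types. NR2F2 is a transcription factor of atrial and HEY2 of ventricular cardiomyocytes. Cells with at least 2 UMIs of 1 and none of the other were taken as NR2F2-type (1298 cells) and HEY2-type (6206 cells). TNNI3 stood at 191 CPM (183 to 198) in NR2F2-type and 66.4 CPM (64.9 to 67.9) in HEY2-type cells, 2.87-fold higher (2.74 to 3.01), and at 112 CPM in the 7187 cells of neither type. TNNT1 was 2.47-fold higher (2.05 to 2.97), from 150 UMIs at 11.6 CPM and 521 UMIs at 4.69 CPM. TNNI1 went the other way, at 5151 and 6250 CPM, a ratio of 0.824 (0.818 to 0.831). TNNT2 was at 9042 and 7197 CPM, a ratio of 1.26 (1.25 to 1.26). TNNC1 was at 3920 and 4063 CPM, a ratio of 0.965, which ran from 0.838 to 1.04 over alternative settings. The TNNI3 share was 3.57% (3.43 to 3.71) against 1.05% (1.03 to 1.08).

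A gene was called here when its ratio was 1.5 or more in either direction and its higher side had at least 10 CPM and 10 UMIs. TNNI3 and TNNT1, 2 of the 5 genes, were called higher, and none was called lower. TNNT1 passed the level cut only through NR2F2-type cells, at 11.6 CPM against 4.69 CPM in HEY2-type cells. Its call thus rests on the side where it is high and carries less weight than that of TNNI3. Of 8691 genes measured in this comparison 12.0% were called higher, 5.25% lower and 17.3% in either direction. Scaling by the trimmed mean of M-values (TMM), which moved all ratios here by -0.20 on the log2 scale, turned the share of higher among all calls from 69.6% to 38.7%. Under TMM, TNNI3 was 2.49-fold higher and TNNI1 had a ratio of 0.716.

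Depth differed between the types, with medians of 9129.5 UMIs in NR2F2-type and 15729 in HEY2-type cells. The TNNI3 share of all cardiomyocyte-like cells went down with depth: over 5 depth groups of equal cell number it was 2.51% in the shallowest and 1.12% in the deepest. The makeup of these groups differed, with 430 NR2F2-type and 339 HEY2-type cells in the shallowest and 53 and 1848 in the deepest. By type, the share in the shallowest and deepest was 3.12% and 3.48% in NR2F2-type cells, and 1.24% and 0.959% in HEY2-type cells. Within the depth groups the NR2F2-type over HEY2-type ratio of TNNI3 was 2.17 to 2.80, past 1.5 in 5 of 5. That of TNNT1 was 1.22 to 3.61, past 1.5 in 4 of 5, and its lowest value had an interval that includes 1 (0.772 to 1.93). When the types were set on cells thinned to 3000 UMIs, the TNNI3 ratio was 2.27.

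The difference was also seen inside single hashtags, to unequal degrees. 7 hashtags held at least 20 cells of each type. In Hashtag9 TNNI3 stood at 437 CPM in NR2F2-type and 79.0 CPM in HEY2-type cells, the largest ratio, 5.52 (4.47 to 6.81). Hashtag3 had 308 and 79.5 CPM. Hashtag8 had 199.9 and 61.6 CPM. In these 3 hashtags, and in Hashtag14 (178 and 66.6 CPM) and Hashtag15 (153 and 65.0 CPM), the intervals of the 2 types did not overlap. Hashtag4 had 93.2 and 63.2 CPM, a ratio of 1.47 (0.976 to 2.14). Hashtag5 had 123 and 109 CPM, a ratio of 1.13 (0.816 to 1.54). So 5 of 7 hashtags were past 1.5 and 2 had intervals that include 1. TNNI1 had a ratio under 1 in 7 of 7, from 0.751 to 0.983, and TNNT2 a ratio of 1.21 to 1.5 in all 7. TNNT1 had an interval above 1 in 3 of 7. Its ratios ran from 0.720 (0.0177 to 4.30) in Hashtag4, with 1 UMI in NR2F2-type cells, to 6.82 (1.11 to 281) in Hashtag14, with 1 UMI in HEY2-type cells.

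**Figure D3:**
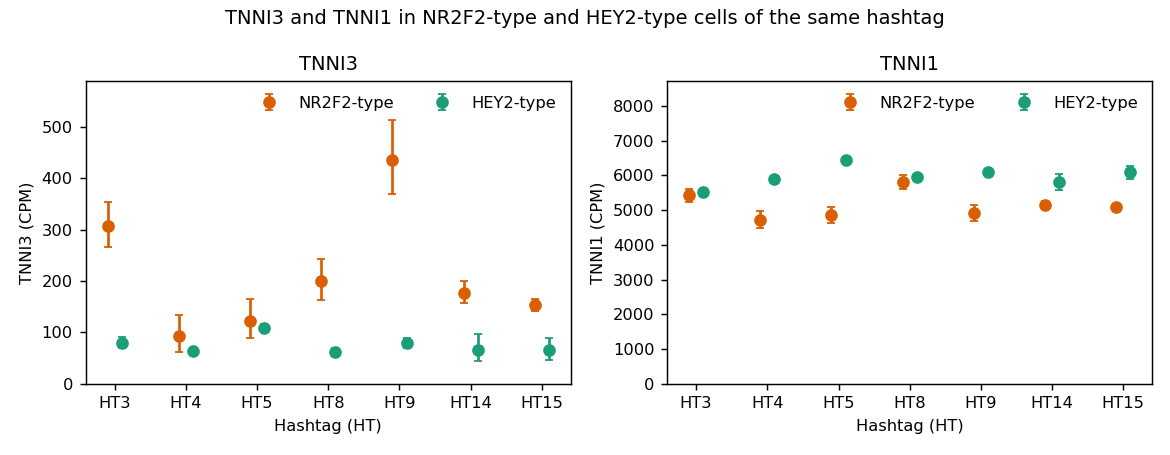
TNNI3 (left) and TNNI1 (right) in CPM in NR2F2-type and HEY2-type cardiomyocyte-like cells of the same hashtag (HT), for the 7 hashtags with at least 20 cells of each type; bars are exact 95% Poisson intervals. The HEY2-type TNNI3 levels lie between 61.6 and 109 CPM, while the NR2F2-type levels run from 93.2 to 437 CPM.

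TNNI3 was also seen in more of the NR2F2-type cells. At 3000 UMIs per cell it was seen in 28.6% (26.1 to 31.1) of 1284 NR2F2-type and 13.9% (13.1 to 14.8) of 6190 HEY2-type cells. Unthinned, at the unequal depths above, it was at 0 in 52.8% and 58.6%. At the other end, 13.7% of NR2F2-type cells held 5 or more UMIs, against 6.75%, although the latter were deeper. Among cells with at least 50 troponin I UMIs, 82 of 627 NR2F2-type cells (13.1%) and 80 of 5553 HEY2-type cells (1.44%) had a TNNI3 share of 10% or more.

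**Figure D4:**
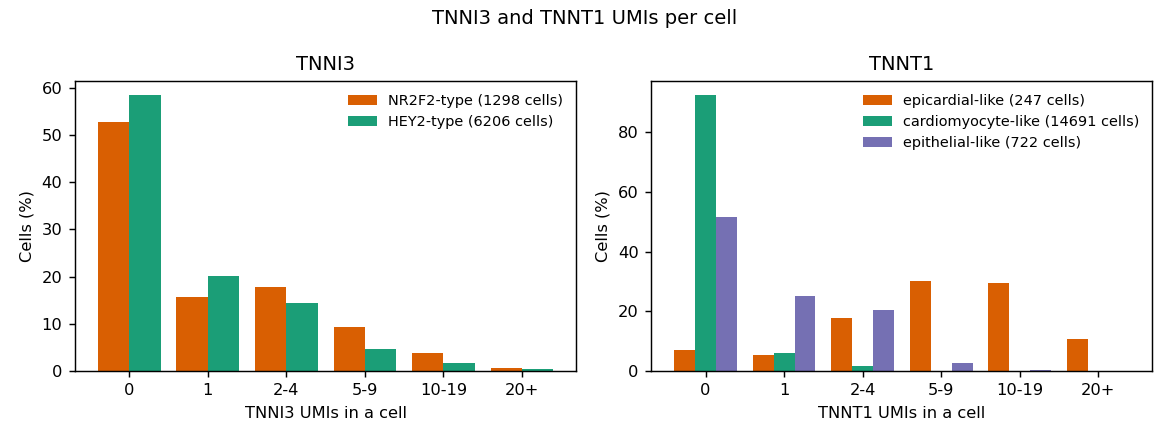
Percent of cells by the number of TNNI3 UMIs (left, NR2F2-type and HEY2-type) or TNNT1 UMIs (right, epicardial-like, cardiomyocyte-like and epithelial-like) in a cell. Most cardiomyocyte-like cells of either type hold 0 or 1 TNNI3 UMI, with a longer tail in NR2F2-type cells, and 70% of epicardial-like cells hold 5 or more TNNT1 UMIs against 0.0817% of cardiomyocyte-like cells.

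Other sarcomere genes gave the setting for these values. Over all 8691 genes measured, 12.0% were called higher and 5.25% lower. Of 14 measured thin filament genes (19 listed), 6 were higher in NR2F2-type cells and 0 lower, with a median ratio of 1.47 against 1.06 over all genes measured. The largest were ACTA1, the skeletal actin, at 10.0-fold, LMOD1, a leiomodin of smooth muscle, at 3.55, NEXN, an actin-binding protein of the Z-disc, at 2.09, and TPM4, a tropomyosin, at 1.96. Of 10 measured thick filament genes, 4 were higher and 3 lower. MYOM2, an M-band protein, was 6.51-fold and MYL7, the atrial light chain, 2.81-fold higher, while the ventricular MYL2 was 2.92-fold and MYH7 2.68-fold lower. Of 13 genes for troponin kinases, phosphatases and partners, PRKCA (1.81) and PRKACB (1.54) were higher and 0 lower. Of 18 cardiac regulators, 5 were higher, with TBX5 (2.93), SRF (2.26) and MYOCD (1.88) among them, and 2 lower, HAND1 (2.64-fold) being the larger. Under TMM scaling the thin filament counts were again 6 and 0, and those of the regulators became 3 higher and 4 lower. The thick filament counts became 3 higher and 3 lower, without MYOM1, and of the kinases and partners PRKCA alone was still called.

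Among NR2F2-type cells, 113 had a UMI of SHOX2, a transcription factor of the sinus node. None of the 5 genes was called between them and the other 1185 cells, where 15.6% of 8924 genes were (7.52% higher and 8.06% lower). TNNI3 stood at 247 and 186 CPM, a ratio of 1.33 (1.17 to 1.51). TNNC1 was the gene nearest to a call, at 2752 and 4024 CPM, a ratio of 0.684 (0.659 to 0.710). In the SHOX2-detected cells TNNC1 made 28.3 UMIs per 100 of TNNT2 and the TNNI3 share was 4.95% (4.38 to 5.57), against 44.8 and 3.46% (3.32 to 3.60).

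A further comparison asked whether the ratio differs in dividing cardiomyocytes. Cells were thinned to 3000 UMIs, and those with a UMI in at least 3 of 24 genes of the G2 and M phases were called mitotic (1700 cells), those with none non-mitotic (8967 cells). The 422 shallower cells were left out. TNNI3 was at 56.9 CPM (54.5 to 59.4) in mitotic and 106 CPM (104 to 108) in non-mitotic cells, a ratio of 0.536 (0.512 to 0.561), and the 3602 cells in between stood between them at 89.9 CPM. TNNI1 was at 5495 and 6370 CPM (0.863), TNNT2 at 6207 and 8005 CPM (0.775) and TNNC1 at 4012 and 4053 CPM (0.990). TNNT1, at 7.43 and 6.18 CPM, was below the level needed to be counted as measured. TNNI3 was thus called lower, 1.87-fold, as 1 of the 4 measured genes, where 2.10% of 8528 genes were lower, 7.32% higher and 9.42% either. The TNNI3 share was 1.03% (0.982 to 1.07) in mitotic and 1.64% (1.61 to 1.67) in non-mitotic cells.

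The lower TNNI3 of mitotic cells was found in each hashtag that could be compared. All 12 hashtags with at least 20 cells on both sides were past 1.5-fold lower, with ratios from 0.20 (0.0724 to 0.446) in Hashtag2, with 6 mitotic UMIs, to 0.621 (0.474 to 0.802) in Hashtag4, with a median of 0.417. TNNI1 had a median of 0.826 and TNNT2 of 0.765 over the same 12. The cells without a hashtag call, 879 mitotic and 4504 non-mitotic, are not among these 12. Their TNNI3 ratio was 0.650 (0.614 to 0.688), weaker than in any of the 12 hashtags. By type, the TNNI3 share was 2.16% in mitotic and 3.83% in non-mitotic NR2F2-type cells, and 0.780% and 1.12% in HEY2-type cells. Mitotic cells were deeper, at a median of 18954 against 12426 UMIs. Within the 5 depth groups the TNNI3 ratio was 0.396 to 0.706, past 1.5-fold in 4 of 5, and weakest in the deepest.

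A few sarcomere genes were called lower along with TNNI3 in mitotic cells. Over all 8528 genes measured, 2.10% were lower and 7.32% higher. Of 14 thin filament genes 2 were lower, LMOD2, which lengthens thin filaments (2.23-fold), and CSRP3, a Z-disc protein (1.70-fold), and 0 higher. Of 9 thick filament genes and of 18 regulators none was called. Of 12 kinases and partners 1 was lower, PLN, the inhibitor of the sarcoplasmic calcium pump (1.62-fold). The median ratios of the 4 lists were 0.828 to 0.925, against 0.995 over all genes measured.

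TNNT1 had a pattern of its own, set by the epicardial-like cluster. The cluster was named from 9 epicardial markers, of which 8 reached 10 CPM (WT1, ALDH1A2, BNC1, TBX18, TCF21 and others), with a summed level of 989 CPM against 13.1 in cardiomyocyte-like cells. TNNT1 stood at 707 CPM (678 to 736) in it, from 2280 UMIs in 247 cells, and at 6.69 CPM in cardiomyocyte-like cells, a ratio of 106 (98.9 to 113). The other levels were 68.8 CPM in epithelial-like, 31.9 in stromal-like, 24.7 in endothelial-like and 13.5 in endoderm-like cells. All endothelial-like TNNT1 UMIs came from 2 of 62 cells, with up to 9 each. The stromal-like and endothelial-like intervals overlap, as do the endothelial-like and endoderm-like ones. TNNT1 was seen in 93.1% of epicardial-like cells (12779 UMIs deep), with a median of 8 and a maximum of 39 UMIs, and in 7.46% of cardiomyocyte-like cells (12759 UMIs deep). At 3000 UMIs per cell the shares were 83.4% and 2.13%. TNNT1 made up 43.5% (42.1 to 44.8) of the troponin T UMIs of epicardial-like cells.

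The other 4 genes were called lower in epicardial-like than in cardiomyocyte-like cells, where 22.4% of 9191 genes were higher, 21.2% lower and 43.5% either. TNNC1 was 22.8-fold lower (21.0 to 24.7), at 179 CPM, TNNT2 8.22-fold, at 920 CPM, and TNNI1 4.64-fold, at 1327 CPM. TNNI3 was 1.95-fold lower (1.66 to 2.29), from 155 UMIs. Relative to TNNT2, TNNI1 stood at 144 UMIs per 100 (138 to 151), above the 81.5 of cardiomyocyte-like cells, and TNNC1 at 19.5 (17.8 to 21.3), below their 54.0. The median epicardial-like cell held 14 TNNI1 UMIs, against 2 in epithelial-like, endoderm-like and endothelial-like cells. The summed cardiomyocyte markers were at 2795 CPM in epicardial-like cells, and the part of carried-over RNA in these 4 levels was not tested. TNNT1 itself was lowest in cardiomyocyte-like cells.

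TNNT1 and TNNI1 are also genes of slow skeletal muscle, whose markers were read in the same cells. Of 10 skeletal muscle markers 9 were at 0 in the epicardial-like cells, MYOD1 and MYOG among them, and the whole list held 2 UMIs. TNNI2, TNNT3 and TNNC2 had 1, 1 and 2 UMIs there. TNNT1 was found in epicardial-like cells of several hashtags: 11 hashtags had such cells, 1 to 23 each. Most epicardial-like cells, 182 of 247, had no hashtag call. They held 1624 of the 2280 TNNT1 UMIs, at 709 CPM (674 to 744). In Hashtag8, with 23 cells, TNNT1 stood at 752 CPM (663 to 850), and in Hashtag5, with 16, at 807 CPM (693 to 934). The remaining 9 hashtags had 1 to 5 cells and 0 to 47 UMIs. The 1 cell of Hashtag2 had 0 UMIs, which with 4415 UMIs in all sets no useful limit.

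Thick filament genes were lower in epicardial-like than in cardiomyocyte-like cells, but not all were scarce beside TNNT1. MYL7 held 2865 UMIs and TTN 2270 in epicardial-like cells, against 2280 of TNNT1. All 9 measured thick filament genes were lower, with a median ratio of 0.0681 against 1.01 over all genes. Of all 9191 genes measured, 21.2% were called lower and 22.4% higher. MYL2 had 1 UMI (60.0-fold lower, 10.8 to 2372), MYL3 was 29-fold, MYL4 22.5-fold and MYH7 19.8-fold lower. Of 14 thin filament genes 9 were lower, led by CSRP3 (46.7-fold), LMOD2 (27.5-fold, 5 UMIs), ACTC1 (18.7-fold) and NEBL (11.6-fold). The 4 that were higher are named here after their values were seen: TPM4 (4.23-fold), TMOD3 (3.44), TPM3 (2.47) and TPM2 (1.75), tropomyosins and a tropomodulin that non-muscle or smooth muscle cells also express. Of 14 kinases and partners, 4 were lower, PLN at 7.40-fold, PRKAR2B at 5.41, PPP1R12B at 2.64 and PRKACA, a catalytic subunit of protein kinase A, at 2.13, and 3 were higher. Of 18 regulators 12 were lower and 0 higher. NKX2-5, a core cardiac factor, was 24.3-fold lower, TBX20, with 2 UMIs, 19.1-fold (5.27 to 157), HAND1 12.1-fold and ESRRG 9.37-fold. TMM scaling moved all ratios of this comparison by -0.18 on the log2 scale and turned the share of higher among all calls from 51.4% to 38.1%. The counts of the thin and thick filament lists and of the regulators were the same with it, and those of the kinases and partners became 3 higher and 5 lower.

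Over the 13 hashtags, TNNI3 varied far more than TNNI1. In cardiomyocyte-like cells TNNI3 ran from 21.6 CPM in Hashtag10 over a median of 100.4 to 169 CPM in Hashtag14, a 7.83-fold range. TNNI1 ran from 5360 CPM in Hashtag14 over 5865 to 6578 CPM in Hashtag7, a 1.23-fold range. TNNT2 had a 1.24-fold and TNNC1 a 1.49-fold range. The TNNI3 share was lowest in Hashtag10, at 0.369% (0.316 to 0.429), and Hashtag12, at 0.454% (0.383 to 0.535). It was 0.878% in Hashtag1, 0.888% in Hashtag7, 1.05% in Hashtag2, 1.24% in Hashtag4 and 1.67%, the median, in Hashtag8. Above it lay Hashtag5 with 1.98%, Hashtag6 with 2.12%, Hashtag9 with 2.34%, Hashtag3 with 2.50%, Hashtag15 with 2.56% and Hashtag14 with 3.05% (2.84 to 3.28). The highest share was 8.27 times the lowest. With hashtag calls that needed 90% of the hashtag UMIs, only 7 hashtags kept 100 cells and that range was 3.76-fold. Hashtag10 had the deepest cells, at a median of 18072 UMIs, and Hashtag14 the shallowest, at 8051.

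The makeup of the cells differed between hashtags too, and its part in these values was not tested. NR2F2-type cells were 0.471% of the cardiomyocyte-like cells of Hashtag10, 29.8% of those of Hashtag14 and 55.3% of those of Hashtag15, against a median of 3.98%. The types describe makeup only in part, as 7187 of the 14691 cardiomyocyte-like cells were of neither type. Hashtag10 was lowest, and Hashtag14 and Hashtag15 were the 2 highest, in both NR2F2-type percent and TNNI3 share. Of the others, Hashtag12, with 4.13% NR2F2-type cells, had a TNNI3 share of 0.454%, and Hashtag6, with 1.48%, had 2.12%. Within HEY2-type cells alone TNNI3 ran from 20.2 CPM in Hashtag12 to 109 CPM in Hashtag5, a 5.39-fold range with a median of 63.2, while TNNI1 had a 1.20-fold range. Hashtag14 and Hashtag15, the 2 with many NR2F2-type cells, stood at 66.6 and 65.0 CPM there, near that median. Within NR2F2-type cells of 7 hashtags TNNI3 ran from 93.2 CPM in Hashtag4 to 437 CPM in Hashtag9. In the IRX1-led sub-cluster 4, over 8 hashtags, it ran from 24.4 CPM in Hashtag12 to 416 CPM in Hashtag6.

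**Figure D5:**
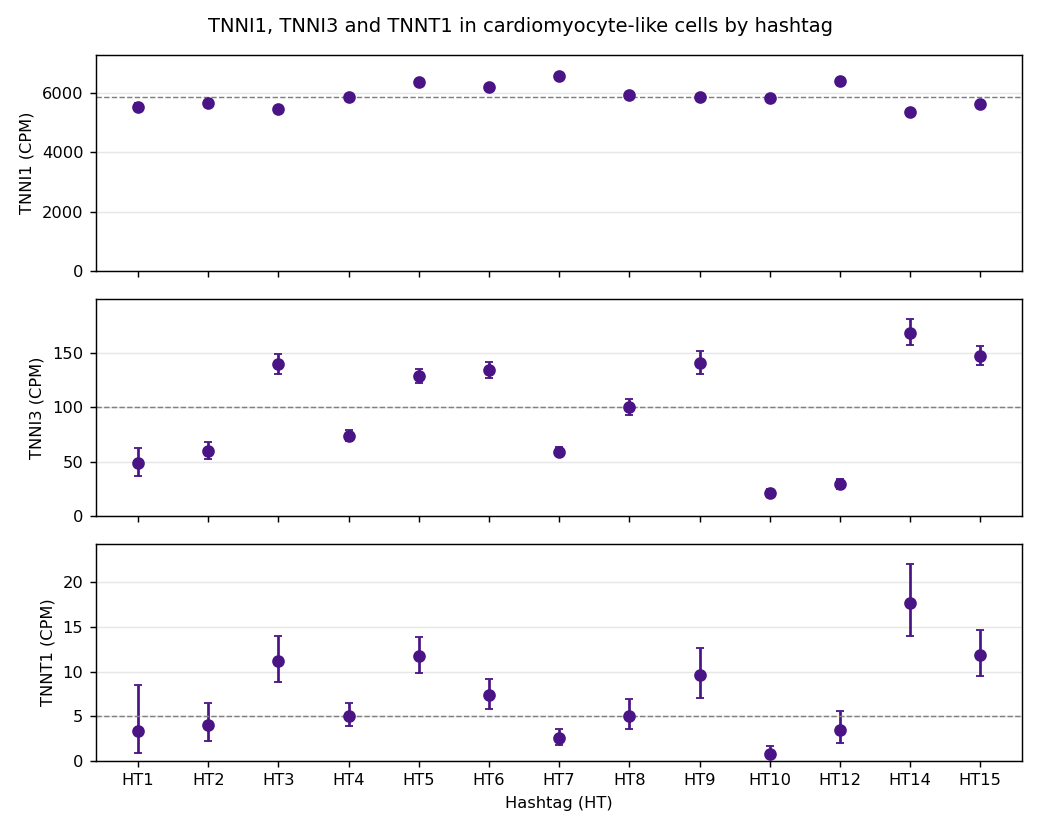
TNNI1, TNNI3 and TNNT1 in CPM in the cardiomyocyte-like cells of each of 13 hashtags (HT); bars are exact 95% Poisson intervals and the dashed line is the median over hashtags. TNNI1 stays within 5360 to 6578 CPM, while TNNI3 runs from 21.6 to 169 CPM and TNNT1 from 0.766 to 17.7 CPM, with Hashtag10 lowest and Hashtag14 highest in both.

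TNNT1 varied with TNNI3 over hashtags. It ran from 0.766 CPM (6 UMIs) in Hashtag10 to 17.7 CPM (79 UMIs) in Hashtag14, and Pearson's r with TNNI3 was 0.907 over the 13 hashtags, which share 1 library and differ in depth and makeup. Without Hashtag14 and Hashtag15 r was 0.902, and in HEY2-type cells alone 0.614. The r of TNNI3 with NPPA over the 13 hashtags was 0.909. Over the 15 clusters the r of TNNI3 with TNNT1 was -0.39. Within depth groups TNNI3 was also seen more often in single cells with TNNT1 than in those without. In the shallowest of the 5 depth groups TNNI3 was seen in 53.9% (45.7 to 62.1) of 152 cells with TNNT1 and in 29.2% (27.5 to 30.9) of 2788 cells without, at medians of 6446 and 5849.5 UMIs. In the middle depth group the values were 65.9% and 39.7%, at medians of 12633 and 12766 UMIs. In the deepest they were 76.9% and 50.2%, where the cells with TNNT1 were deeper, at medians of 29930 and 24431 UMIs. TNNT2 was not higher in the cells with TNNT1 in any depth group, at 8344 and 8635 CPM in the shallowest and 6715 and 6925 CPM in the deepest.

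The genes most like each member over the 15 clusters, by Pearson's r of log2(CPM + 5) among 5426 genes, were as follows. For TNNI1 they were CRIP1 (0.980), TMOD1 (0.970) and NDUFV3 (0.967), and for TNNI3 LYPLAL1 (0.903), NPPA (0.899) and ADPRHL1 (0.876). For TNNT1 they were PTGIS (0.957), BNC1 (0.955), 1 of the markers that named the epicardial-like cluster, and PLAC9 (0.939). For TNNT2 they were ITGB1BP2 (0.976), PPP1R14C (0.974) and UNC45B (0.973), and for TNNC1 MYL3 (0.991), CKM (0.980) and MB (0.978). Over the 13 hashtag sums, among 3549 genes, TNNI3 was most like CRIP1 (0.956), DNAJC15 (0.954) and HAMP (0.936). The highest values for TNNI1 there were lower, with NAT14 (0.837), P4HB (0.831) and MRPS11 (0.829). For TNNT1 they were HSPB2 (0.966), ZFP36L1 (0.921) and IGFBP6 (0.918), for TNNT2 NUCB2 (0.840), MOAP1 (0.839) and IDI1 (0.832), and for TNNC1 RRM1 (0.881), NDUFS1 (0.800) and TRIM63 (0.792). The r of TNNI1 with TNNI3 was 0.786 over clusters and -0.28 over hashtags. These describe clusters and hashtags of 1 library and carry no test.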

How the data were processed

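The deposited data are 1 matrix of raw counts, that is UMIs for 36601 genes and 13 hashtags in 24038 barcodes, made by the authors with Cell Ranger 4.0.0 (per the file headers) on hg38 (per the submitters' processing notes). For the annotation release and the way cells were called, the sources used here give nothing. Gene and hashtag counts share their barcodes, and no barcode occurs more than once.

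Barcodes were kept from 500 genes and 1000 UMIs up to 25% mitochondrial UMIs (2415 removed), and Scrublet in scanpy 1.11.5 removed 2314 doublets (10.7%, at its own threshold of 0.391). Counts were scaled to 10000 per cell, and 2000 variable genes, without 72 troponin and other listed genes, gave 30 components, 15 neighbours and leidenalg 0.10.2 clusters at resolution 0.6. A cluster was cardiomyocyte-like when at least 9 of 12 markers reached 25% of their highest level over clusters, and of another class when at least 3 of its markers were high with a mean of 45% or more. These thresholds, and leaving shallow clusters without markers unnamed, were set after the data were seen. A hashtag call needed 20 hashtag UMIs, 70% of them from 1 hashtag.

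UMIs were summed per group (scipy 1.17.1, Python 3.11.15). Levels have exact Poisson, shares exact Clopper-Pearson and ratios exact conditional binomial intervals. Nothing was tested, because 1 pool has no replicates. The method was tested on simulated data at the depths of the NR2F2-type over HEY2-type comparison, with 5622 genes: all genes with a true fold of 0.25, 0.5, 2 or 4 (50 genes each) were called, 0% of 5422 unchanged genes were, and intervals covered 94 to 96% of true ratios. The simulation held no variation between cells and only genes above a level cut, which TNNT1, at 11.6 and 4.69 CPM, did not reach. At such counts these rates of calls were close to fixed beforehand. They check the calculation and say nothing on TNNT1 or on variation between cells. TMM factors came from edgeR 4.0.16, on the deposited counts summed by group.

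The 5 genes, the 4 gene lists and the comparisons were chosen with earlier results of these data known. Named genes are the 5 genes, up to 4 per list and comparison with the largest called ratio, and for each of the 5 the 3 most alike, among genes at 50 CPM or more in at least 1 group. The value of 1 gene that this rule names is not reported here, and the next in order stands in its place. Alternatives were other cell filters, clusterings, hashtag calls, gates and scalings, and each hashtag left out.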

Additional observations from a re-analysis of the deposited data

How the results depend on the processing

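No call on TNNI3, TNNI1 or TNNT1 was gained, lost or turned by any alternative run, and no ratio of a gene to itself between groups moved by over 1.5 times. The range of the TNNI3 share over hashtags did: 8.27-fold, and 3.76-fold with hashtag calls at 90%, where 7 hashtags remained. The TNNI3 share of cardiomyocyte-like cells, 1.49%, was 1.52% with the strict cell filter (1000 genes, 2000 UMIs, 15% mitochondrial), 1.73% with each cell weighted equally, and 1.43% without Hashtag14 and Hashtag15. Leaving out each hashtag in turn gave 1.46 to 1.54%. The NR2F2-type over HEY2-type ratio of TNNI3, 2.87, was 3.09 without barcodes of 2 hashtags, 2.49 under TMM, 2.27 with types set on thinned cells, 2.71 with types set at 1 UMI and 3.21 without Hashtag14 and Hashtag15. Leaving out each hashtag gave 2.75 to 3.13. The TNNI1 ratio, 0.824, was 0.841 without barcodes of 2 hashtags, 0.716 under TMM, 0.866 with types set on thinned cells, 0.863 with types set at 1 UMI, 0.828 without Hashtag14 and Hashtag15, 0.843 for equal weights and 0.837 without sub-cluster 8, and 0.818 to 0.828 over hashtags left out. The mitotic over non-mitotic ratio of TNNI3, 0.536, was 0.489 without barcodes of 2 hashtags, 0.477 with at least 5 G2M genes, 0.476 with equal weights, 0.510 without sub-cluster 8 and 0.530 to 0.554 over hashtags left out. The epicardial-like over cardiomyocyte-like ratio of TNNT1, 106, was 93.3 under TMM, 88.2 with equal weights and 102 to 109 over hashtags left out. The cause of these moves was not tested. Leaving out sub-cluster 8, or Hashtag14 and Hashtag15 together, was chosen after seeing the data.

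No paired analysis was possible because the labels give no replicate numbers. Ratios between cell types within single hashtags are given in the report as values with no test. Depth limits TNNI3 and TNNT1 most: a count of 0 in all cardiomyocyte-like cells would allow 0.0138 CPM, in the 62 endothelial-like cells 4.94 CPM. Doublets and free RNA remain, and intervals cover counting error only.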

Other observations

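Clusters outside the comparisons differed in TNNC1 relative to TNNT2. An unnamed cluster of 154 cells, led by CRHBP, HOXB1 and MYH11, held TNNI1 at 7959 CPM (7811 to 8108) and TNNT2 at 7615 CPM, above or near the cardiomyocyte-like levels, but TNNC1 at 1049.6 CPM (996 to 1105). That is 13.8 TNNC1 UMIs per 100 of TNNT2 (13 to 14.6), against 34.4 to 66.4 in the 7 cardiomyocyte-like clusters. Its TNNI3 stood at 141 CPM (122 to 162), with a share of 1.74%. The 2 stromal-like clusters differed from each other. Cluster 9 (696 cells) held TNNT2 at 3074 CPM and TNNC1 at 332 CPM, or 10.8 per 100 (10.3 to 11.3), while cluster 7 (813 cells) held 1038 and 475 CPM, or 45.8 per 100. The summed cardiomyocyte markers were at 14478 CPM in cluster 9 and 5615 CPM in cluster 7. The other unnamed cluster, with 1600 cells, a median of 1913 UMIs and 13.1% mitochondrial UMIs, had 23.2 per 100 and a TNNI3 share of 2.73% (2.39 to 3.10).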
